A study of Mus musculus with 6 samples.

Results

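The Gata genes other than Gata3 were chosen by symbol: Gata1, Gata2, Gata4, Gata5 and Gata6, 5 of the 24453 gene rows that each of the 6 deposited count tables holds. Bulk RNA sequencing was done on sorted back-skin cells of mice at postnatal day 0. The 3 control libraries carry no further genotype in the labels, and the 3 libraries labelled Ring1a/b 2KO have the genotype Ring1a-/- Ring1b-/-. RING1A (gene Ring1) and RING1B (gene Rnf2) are the ligases that place ubiquitin on histone H2A within Polycomb repressive complex 1 (PRC1), which keeps developmental genes silent. The labels name the cells as hair follicle cells, whereas the protocol text attached to them describes a sort of interfollicular epidermis positive for EpCAM and Sca1. Strain, sex, the driver of the deletion and the number of animals per library are missing from the labels used here, so p-values measure the spread between these libraries, which may be technical.

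GATA factors are transcription factors whose zinc fingers bind DNA at the letters GATA. Gata1 and Gata2 are known for blood: Gata1 for red cells, megakaryocytes and mast cells, Gata2 for blood stem cells, mast cells and endothelium. Gata4, Gata5 and Gata6 act in heart and endoderm, Gata4 also in the gonad, and Gata6 has been described in the upper hair follicle and the sebaceous duct. Gata3, the family member of epidermis and hair, serves here only as a reference. Many genes of this kind, silent in skin, are textbook targets of Polycomb repression.

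Total counts ranged from 24.8 to 30.8 M per library (M, mega). Values below are counts per megacount (CPM) scaled by TMM, a between-library normalization, and 1 count was worth 0.0323 to 0.0392 CPM. Ring1 stood at 19.5, 22.4 and 3.37 CPM in control replicates 1, 2 and 3 and at 1.84, 7.34 and 14.1 CPM in 2KO replicates 1, 2 and 3. Rnf2 stood at 47.1 to 79.5 CPM in control and 66.4 to 89.2 CPM in 2KO. Neither targeted gene separated the groups, control replicate 3 lay inside the 2KO range of Ring1, and the labels do not give the deleted part of either gene. Each direction below is therefore one between libraries so labelled. Krt14, a basal keratinocyte keratin, stood at 1470 to 4090 CPM in all 6 libraries and Epcam at 165 to 358 CPM. Itga6, which encodes alpha6 integrin, stood at 683 to 1090 CPM, while Ly6a, which encodes Sca1, stood at only 1.92 to 7.28 CPM. Xist, which is made from the inactive X chromosome, was at 4550 to 5360 CPM in control replicate 3 and 2KO replicates 1 and 2 and at 2.48 to 10.4 CPM in the other 3 libraries.

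The 5 genes fell into 3 kinds. Gata4 and Gata2, nearly silent in control, were higher in every library labelled 2KO and passed the threshold. Gata6, already present in control, was also higher in every 2KO library but narrowly missed it. Gata5 had at most 2 counts in any library, and Gata1 had counts in control replicate 3 alone. The threshold was an adjusted p under 0.05 in edgeR's quasi-likelihood test, fitted on 14972 genes that passed a filter on low counts. Of all these genes 9.02% passed in either direction and 6.61% as higher in 2KO, and for 15.2% every 2KO library lay above every control library. Of the 5 Gata genes 3 passed the filter. Gata4 and Gata2 passed it only through their 2KO libraries, so that they had to differ in order to be tested, and nothing is read from 2 of 3 tested genes being called.

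**Figure D1:**
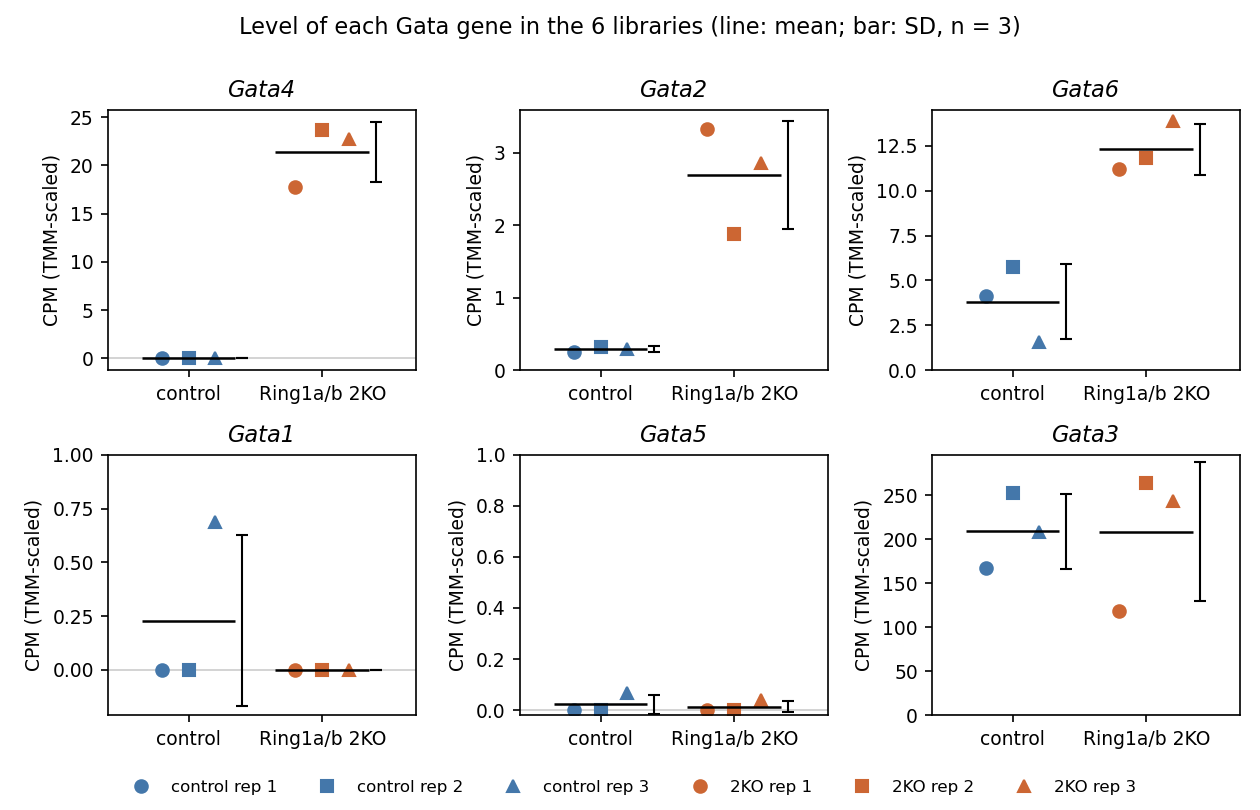
TMM-scaled CPM (vertical axes, separate scales) of the 5 Gata genes and of Gata3 in the 3 control and 3 Ring1a/b 2KO libraries; symbols mark the replicate number, lines the mean and bars the SD (n = 3). For Gata4, Gata2 and Gata6 every 2KO library lies above every control library, Gata1 is above 0 only in control replicate 3, and the groups overlap for Gata3.

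Gata4 (chromosome 14, 63198922 to 63271692, minus strand, GRCm38), a factor of heart, endoderm and gonad, showed the sharpest contrast of the family members tested. The control libraries held 2, 1 and 1 counts, or 0.071, 0.0323 and 0.0327 CPM. The 2KO libraries held 454, 711 and 579 counts, or 17.8, 23.7 and 22.7 CPM. The lowest 2KO library was 251-fold above the highest control library, and control replicate 3, which stood apart for Ring1, was as low as the other 2. The means were 0.0453 ± 0.0222 and 21.4 ± 3.17 CPM (SD, n = 3), with a log2 fold change of 8.77 (SE 0.46, edgeR adjusted p = 3.5e-05), which rests on 4 control counts in all. By log2 fold change it ranked 31 of the 14972 tested genes, highest first. The call held under all 16 other ways of processing, with log2 fold changes of 8.49 to 9.32.

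Gata2, a factor of blood stem cells and endothelium, rose from a trace to a low level. The control libraries held 7, 10 and 9 counts (0.248, 0.323 and 0.294 CPM) and the 2KO libraries 85, 56 and 73 (3.33, 1.87 and 2.86 CPM). The groups were 5.79-fold apart at their nearest libraries. Its mean went from 0.288 ± 0.0376 to 2.69 ± 0.748 CPM. The edgeR fit gave a 9.18-fold difference, a log2 fold change of 3.20 ± 0.68 (SE; edgeR adjusted p = 0.0185). Gata2 ranked 412 of the 14972 tested genes by log2 fold change. The log2 fold change was 3.03 to 3.42 when single libraries were left out, but the call was lost in 5 of the 6 such fits: without control replicates 1, 2 and 3 (edgeR adjusted p = 0.0576, 0.0556 and 0.0701) and without 2KO replicates 1 and 3 (0.0596 and 0.0505). Dropping the replicate-3 library of each group ended the call too (edgeR adjusted p = 0.135), and so did dropping the replicate-1 library of each (0.111).

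Gata2 lies on chromosome 6, from 88193891 to 88207032 on the plus strand (GRCm38), and has 2 starts in the table of promoters used here. RefSeq's table of promoters, in build GRCm38.p6, held 3 of the 5 Gata genes: Gata1, Gata2 and Gata5. Their upstream sequence is shown because CpG-rich promoters are a known feature of many Polycomb targets and because these 3 genes differed in the data: Gata2 rose, whereas Gata1 and Gata5 had too few counts to be tested. Each run is given 5′ to 3′ on the gene's strand, ends at or before the base ahead of the RefSeq start, leaves out bases of GENCODE vM21 exons, and has each CpG in capitals.
Gata2, chr6:88193641-88193890, plus strand: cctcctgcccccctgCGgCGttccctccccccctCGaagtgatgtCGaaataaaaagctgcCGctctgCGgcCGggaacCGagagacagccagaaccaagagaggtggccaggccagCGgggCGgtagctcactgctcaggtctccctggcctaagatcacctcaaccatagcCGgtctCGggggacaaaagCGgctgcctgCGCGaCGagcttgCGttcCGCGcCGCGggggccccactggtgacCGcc
Gata5, chr2:180334700-180334929, minus strand: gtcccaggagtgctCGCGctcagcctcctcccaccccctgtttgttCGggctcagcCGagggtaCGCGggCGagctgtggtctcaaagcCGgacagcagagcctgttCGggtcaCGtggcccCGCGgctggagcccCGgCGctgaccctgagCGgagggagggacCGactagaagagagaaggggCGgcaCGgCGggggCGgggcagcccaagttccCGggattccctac
Gata1, chrX:7967911-7968160, minus strand: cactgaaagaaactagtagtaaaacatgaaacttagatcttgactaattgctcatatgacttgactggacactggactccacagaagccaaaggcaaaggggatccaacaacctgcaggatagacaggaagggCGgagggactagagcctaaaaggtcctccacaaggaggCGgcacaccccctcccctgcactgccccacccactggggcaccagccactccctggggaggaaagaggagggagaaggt

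The 250 bases ahead of this Gata2 start held 22 CpG, as did those ahead of the Gata5 start, a count that 14.8% of the 32851 promoters in the table reached (median 6). A further Gata2 start, at position 88198664, had 24 CpG, which 12.0% of promoters reached. The Gata1 window had 2 CpG, and 81.2% of promoters held at least as many. It lies ahead of a RefSeq start at position 7967910, inside the GENCODE gene, which starts at 7978071 on the minus strand. Sequence ahead of that GENCODE start, from which distances below are taken, was not read. The Gata2 and Gata5 windows were thus alike in CpG count and the Gata1 window had fewer. As Gata5 and Gata1 were not tested, nothing is read from this about which gene was called. The letters GATA, searched on both strands, occurred once in the Gata1 window and not in the Gata2 or Gata5 windows, where 53.6% of all promoters of that length held them. A match in letters is a description and not a binding site.

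Gata6, a factor of endoderm and heart that has been described in the upper follicle and sebaceous duct, was the most abundant of the 5 in control. It stood at 4.12, 5.75 and 1.57 CPM in the control libraries and at 11.2, 11.8 and 13.9 CPM in the 2KO libraries. Control replicate 3 was the lowest library, while the nearest libraries of the groups differed 1.94-fold. The means were 3.81 ± 2.11 and 12.3 ± 1.43 CPM (SD, n = 3), and the log2 fold change of 1.69 (SE 0.46, 95% interval 0.79 to 2.59) missed the threshold by a small margin (edgeR adjusted p = 0.0506). It passed with DESeq2 (adjusted p = 0.00416), limma-voom (0.0272), no filter on low counts (0.0263), Xist as a covariate (0.0334) and without control replicate 2 (0.0375). Without control replicate 3 the log2 fold change was 1.32 (edgeR adjusted p = 0.0908), and without either replicate-3 library it was 1.22 (0.196). In these 16 other ways of processing the value stayed above 0.

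Gata1, the red-cell factor, had 0 counts in 5 of the 6 libraries. All 21 of its counts lay in control replicate 3 (0.687 CPM), so that its control mean of 0.229 ± 0.396 CPM describes no shared level. The 2KO libraries held 0 counts in all, which allows a level of up to 0.0371 CPM (3 counts over the group, counting error only). It did not pass the filter, and without a filter it did not pass the test (edgeR adjusted p = 0.292). Gata5, a factor of heart valves and gut, had 0, 0 and 2 counts in control and 0, 0 and 1 in 2KO, at most 0.0654 CPM in any library. It was not tested for lack of counts, and gave an adjusted p of 0.920 with no filter (edgeR).

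**Figure D2:**
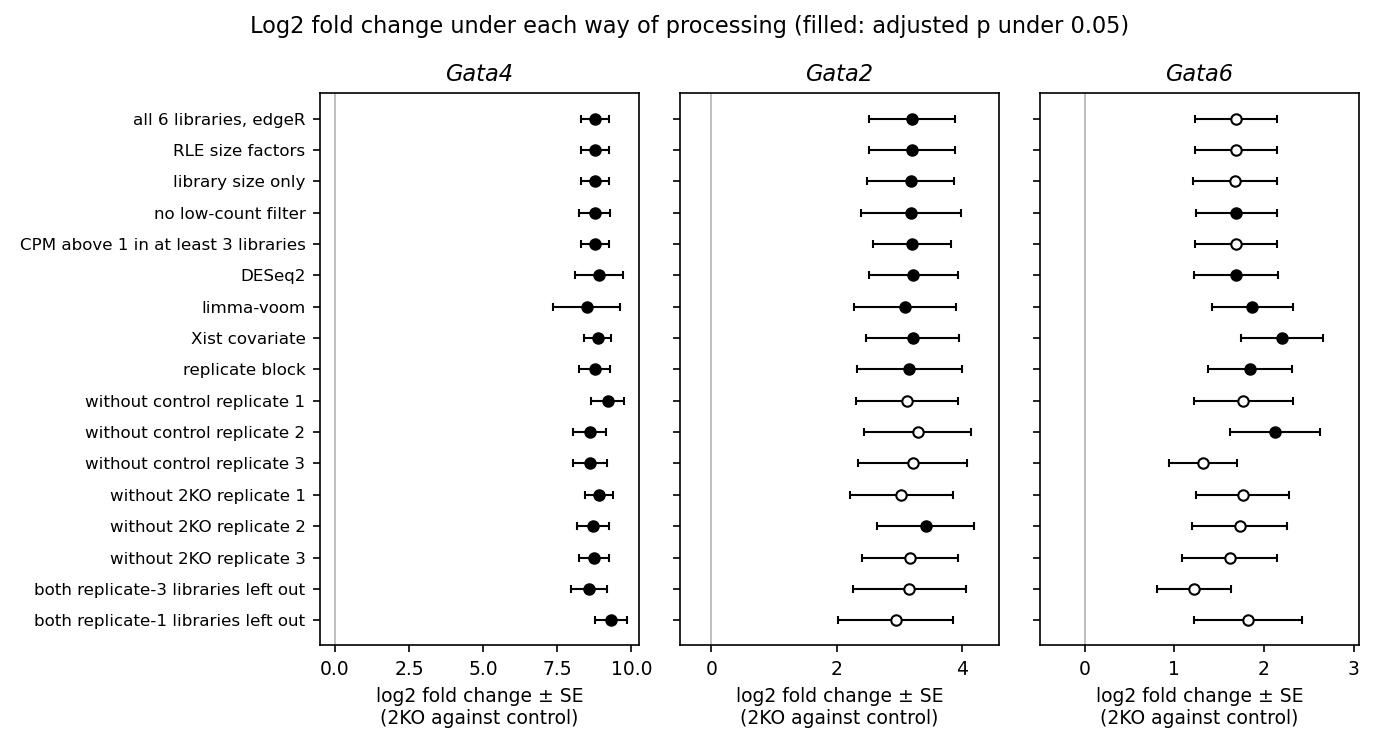
Log2 fold change of 2KO against control with its SE (horizontal axes) for the 3 tested Gata genes under each way of processing (rows); filled points have an adjusted p under 0.05. Gata4 is filled in every row, Gata2 loses its call in 7 of 16 alternatives and Gata6 gains one in 6 of 16, with all values above 0.

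Compared per kilobase of exon, which allows levels of different genes to be set side by side, the order of the family changed between the groups. In control it was Gata3 (42.0 to 63.2 CPM per kilobase), Gata6 (0.241 to 0.883), Gata2 (0.046 to 0.0598) and Gata4 (0.00827 to 0.0182), with no overlap of these ranges. In 2KO it was Gata3 (29.8 to 66.3 CPM per kilobase), Gata4 (4.56 to 6.08), Gata6 (1.72 to 2.14) and Gata2 (0.346 to 0.618), again with no overlap. Gata4 thus moved from below Gata2 to above Gata6. Gata1 was above 0 only in control replicate 3 (0.282 CPM per kilobase), at about the level of Gata6 in that library, and Gata5 did not exceed 0.020 CPM per kilobase.

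Gata3 itself stood at 167, 252 and 208 CPM in control and 118, 264 and 243 CPM in 2KO. The groups overlapped, and the log2 fold change had a 95% interval of -0.57 to 0.56 (edgeR adjusted p = 0.997). The 5 other Gata genes made up 1.63%, 1.48% and 1.14% of the family's length-scaled level in the control libraries and 18.8%, 11.1% and 12.2% in the 2KO libraries. Within that share Gata4 alone held 8.15% to 12.4% of the family's level in 2KO against 0.0129% to 0.0426% in control. Gata3 remained 4.32 to 8.04 times the sum of the other 5 in 2KO and 60.3 to 86.4 times in control. Over the 15 pairs of family members the longest stretch of identical transcript sequence was 14 to 26 bases, against reads of 100 nt. Exchange of reads between these genes was not tested.

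**Figure D3:**
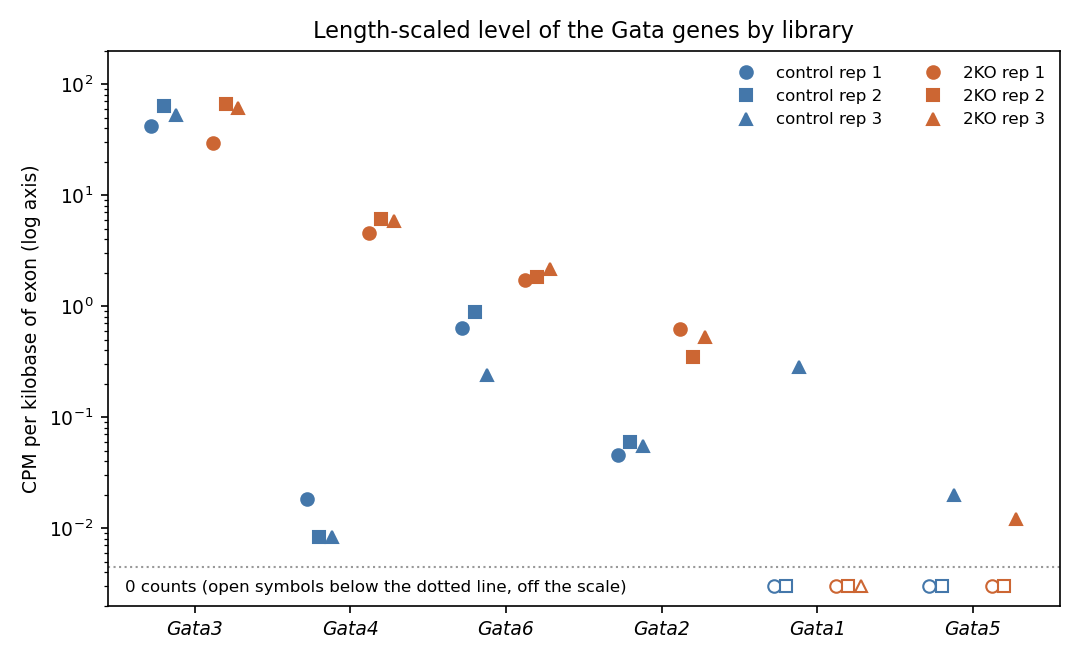
CPM per kilobase of exon (log axis) of the 6 Gata genes in each library; blue symbols are control, orange symbols 2KO, and open symbols below the dotted line are libraries with 0 counts. Gata4 lies lowest of the 4 genes seen in every library in control and second only to Gata3 in 2KO.

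Genes beside the Gata genes were read next, since the labels do not state whether strand was used in counting, and reads of overlapping genes cannot then be told apart. 1010001N08Rik, an opposite-strand noncoding gene that overlaps the start of Gata6 (chromosome 18, Gata6 from 11052064 to 11085635, plus strand), had 0 counts in all 3 control libraries and 5, 7 and 4 counts in 2KO. Its groups did not overlap and its level was at least 5.92-fold higher against a floor of 3 counts over the control group, but it was too low to be tested with the filter (edgeR adjusted p = 0.211 with none). Gata5os, on the strand opposite to Gata5, had 0, 0 and 1 counts in control and 0, 0 and 3 in 2KO.

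None of the nearest genes on either side of a Gata gene passed the threshold. Neil2, a DNA repair gene 5.1 kb from Gata4, stood at 1.45 ± 0.463 and 1.89 ± 0.95 CPM (edgeR adjusted p = 0.812), and Blk, 101.1 kb to its other side, had 1 count in all 6 libraries. Rpn1, 88.6 kb from Gata2, stood at 90.3 ± 12.6 and 90.4 ± 16.6 CPM (log2 interval -0.40 to 0.40), and Dnajb8, 15.2 kb from it, had 1 count in all. Mib1 and Rbbp8, 233.4 and 547.6 kb from Gata6, had log2 fold changes of -0.14 (SE 0.18) and -0.20 (SE 0.26). Hdac6, 11.4 kb from Gata1, had 0.27 (SE 0.25), and Rbbp8nl, 35.3 kb from Gata5, had -0.77 (SE 0.82). Glod5, on the other side of Gata1, and B230312C02Rik, on the other side of Gata5, had 0 counts throughout.

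In a window of 500 kb on either side of each Gata start, a size set after the nearest genes had been seen, 72 other genes were tested. Of these 1 was higher and 1 lower in 2KO, where 6.61% of all tested genes were higher and 2.42% lower. Their median log2 fold change was 0.00, against -0.02 over all tested genes. Tdh, a threonine dehydrogenase gene at -237.4 kb from the Gata4 start, was lower (log2 fold change -3.45, edgeR adjusted p = 0.00998), and lost the call without control replicate 3 (0.0502). Tcfl5, at -308.0 kb from the Gata5 start, was higher (3.93, adjusted p = 0.0406). Its call ended on leaving out control replicate 1 (0.0575) or 2 (0.0901), or any 2KO library (0.101, 0.0954 and 0.065 for replicates 1, 2 and 3).

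**Figure D4:**
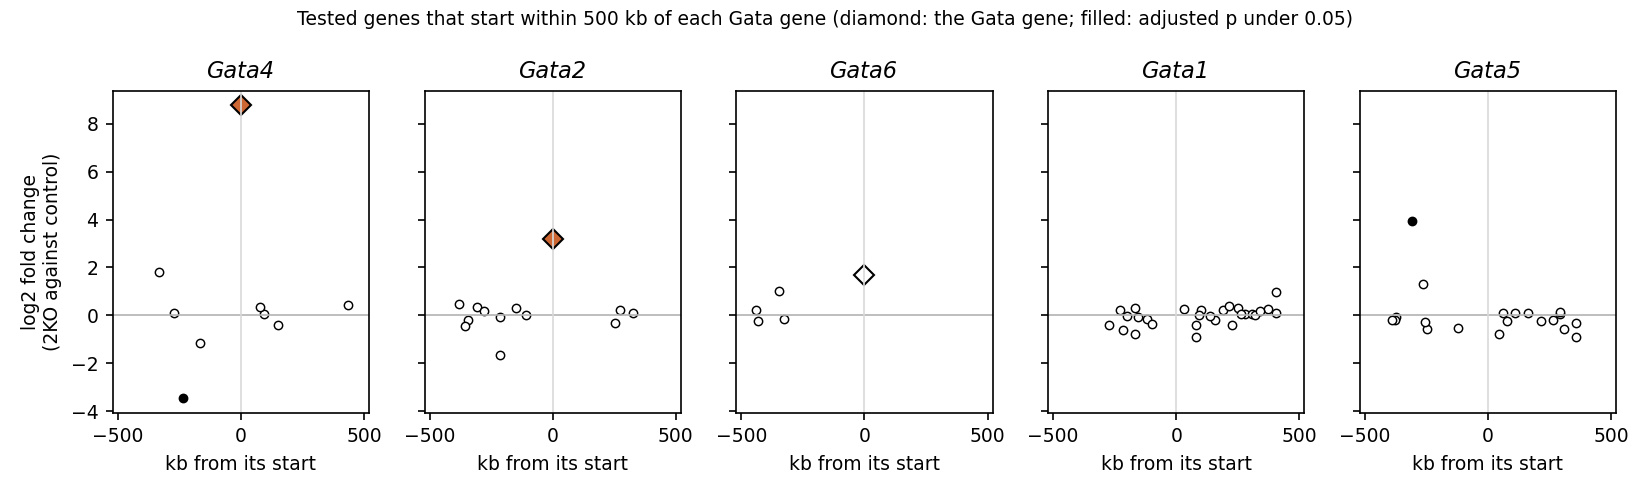
Log2 fold change of 2KO against control (vertical axis) of the tested genes that start within 500 kb of each Gata start, by distance in the direction of transcription (horizontal axis, kb); diamonds are the Gata genes and filled symbols have an adjusted p under 0.05. The Gata4 and Gata2 diamonds lie above all their neighbours, among which only Tdh, near Gata4, and Tcfl5, near Gata5, are filled.

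Lists of genes that work with GATA factors were counted in the same fit. Genes near 0 in control entered the test only through their 2KO libraries and so had to be higher, which conditions the counts and medians of the heart, endoderm and gonad lists below. Those are descriptions, to be set beside the 6.61% of all tested genes that were higher and the 2.42% that were lower. Of 18 tested cofactors and complex partners (of 22 listed) 1 was higher in 2KO, near the share over all genes, none was lower, and the median log2 fold change was -0.05. The higher gene was Cbfa2t3, a corepressor of the blood GATA complexes, at 2.87, 4.10 and 2.32 CPM in control and 57.2, 22.1 and 18.0 CPM in 2KO, a log2 difference of 3.38 ± 0.48 (SE; edgeR adjusted p = 0.00297). Zfpm1, which encodes the cofactor FOG1, stood at 13.8 ± 5.46 and 13.4 ± 6.19 CPM (adjusted p = 0.974). Zfpm2, which encodes FOG2, the heart cofactor of Gata4, had 45, 7 and 5 counts in control and 8, 0 and 0 in 2KO and was not tested. Tal1 and Lmo2, partners of Gata1 and Gata2 in blood, did not pass (adjusted p = 0.444 and 0.730).

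The 10 other genes with a zinc finger of the GATA type, the reference Gata3 among them, were all tested and none passed (median log2 fold change -0.09). By level they are led by Rere (493 ± 125 and 470 ± 20.4 CPM) and Gatad2b (360 ± 47.0 and 299 ± 27.6 CPM), a subunit of the NuRD complex. One of the 10 passed as higher without control replicate 1.

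Among heart transcription factors, the usual partners of Gata4 and Gata6, 4 of 13 tested (of 19 listed) were higher and none was lower (median 0.06), and Hand2, Tbx5 and Tbx18 among the 4 entered the test only through 2KO. Tbx3 stood at 2.95 ± 0.505 CPM in control and 51.0 ± 15.6 CPM in 2KO, a log2 difference of 4.11 ± 0.31 (SE; edgeR adjusted p = 0.000182), and Tbx18 went from 0.0869 ± 0.100 to 6.98 ± 0.333 CPM. Tbx5 went from 1 count over the control libraries to 1.71 ± 0.865 CPM. Hand2 had 0 counts in control and 0.863, 0.968 and 0.942 CPM in 2KO, at least 27.7-fold higher. Its call was lost without control replicate 3 (0.0599) and 2KO replicates 2 (0.0576) and 3 (0.0553). Without either replicate-3 library 2 of the list were higher.

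Of 8 heart muscle genes tested, out of 18 listed, 3 were higher and none was lower (median 1.05): Ryr2, a calcium release channel, from 1.18 ± 0.221 to 15.7 ± 1.95 CPM, Slc8a1, a sodium and calcium exchanger, from 9.73 ± 4.0 to 35.2 ± 11.3 CPM, and Tnnt2, a troponin, from 6.72 ± 0.449 to 15.5 ± 4.63 CPM. For Tnnt2 (edgeR adjusted p = 0.0445) the call ended on leaving out any control library (0.0961, 0.124 and 0.118 for replicates 1, 2 and 3), 2KO replicate 1 (0.0921) or 2KO replicate 3 (0.127). Other cardiac genes were low: Myl2 and Myl3 had no count, Myh6 had 1 count over the control and 3 over the 2KO libraries, and Nppb, a natriuretic peptide, had 0 in control and 20, 3 and 0 counts in 2KO. Without either replicate-3 library, or without either replicate-1 library, 1 of the list was higher.

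Of 7 tested endoderm transcription factors (of 19 listed) 3 were higher and none was lower (median 2.72), while the other 12 were too low to be tested, and 2 of the 3 entered the test only through 2KO. They were led in level by Prox1, from 9.23 ± 6.30 to 60.7 ± 9.08 CPM, and included Eomes, from 1 count over the control libraries to 1.02 ± 0.275 CPM. For Eomes the call ended on leaving out control replicate 1 (0.069), control replicate 3 (0.0833) or 2KO replicate 2 (0.0602), and without either replicate-3 library none of the list passed. Among endoderm products none of 5 tested (of 18) passed, and 8 had no count in any library, Afp and Apob among them. In the gonad and steroid list 4 of 9 tested (of 15) were higher and none was lower (median 0.22): Wt1 (at least 356-fold), Dmrt1 (at least 146-fold) and Foxl2 (at least 47.6-fold), each at 0 counts in control, and Lhx9, with 1. All 4 entered the test only through 2KO. The call of Foxl2 was lost without control replicate 3 (0.0502) and 2KO replicate 3 (0.0673), and 2 of the list were higher without either replicate-3 library. Nr5a1, a steroidogenic partner of Gata4, had 6 counts over the control and 11 over the 2KO libraries.

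For the list nearest to the known place of Gata6 in skin the calls were lower. Of 16 tested genes of upper follicle, sebaceous duct and gland (of 18 listed) 4 were lower in 2KO, where 2.42% of all tested genes were, and none was higher (median -0.37). With DESeq2, and without control replicate 2, 1 of the list was higher. Prdm1, a transcription factor, stood at 80.3 ± 25.7 CPM in control and 20.6 ± 7.02 CPM in 2KO, a log2 difference of -1.96 ± 0.33 (SE; edgeR adjusted p = 0.00613). Lrig1, which marks stem cells above the bulge, went from 212 ± 37.2 to 87.4 ± 13.6 CPM. The others were Mgst1 and Far2. Without control replicates 1 or 3 or 2KO replicates 1 or 3, 2 of the list were lower, as they were without either replicate-3 library or either replicate-1 library. For Mgst1 the call ended on leaving out control replicate 1 (0.128) or 3 (0.0675), or any 2KO library (0.0527, 0.103 and 0.0701 for replicates 1, 2 and 3). For Far2 it ended on leaving out control replicate 1 (0.0714) or 3 (0.0951), or 2KO replicate 1 (0.0545) or 3 (0.067). Krt79, a keratin of the duct, stood at 248 ± 148 and 521 ± 123 CPM (edgeR adjusted p = 0.157).

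**Figure D5:**
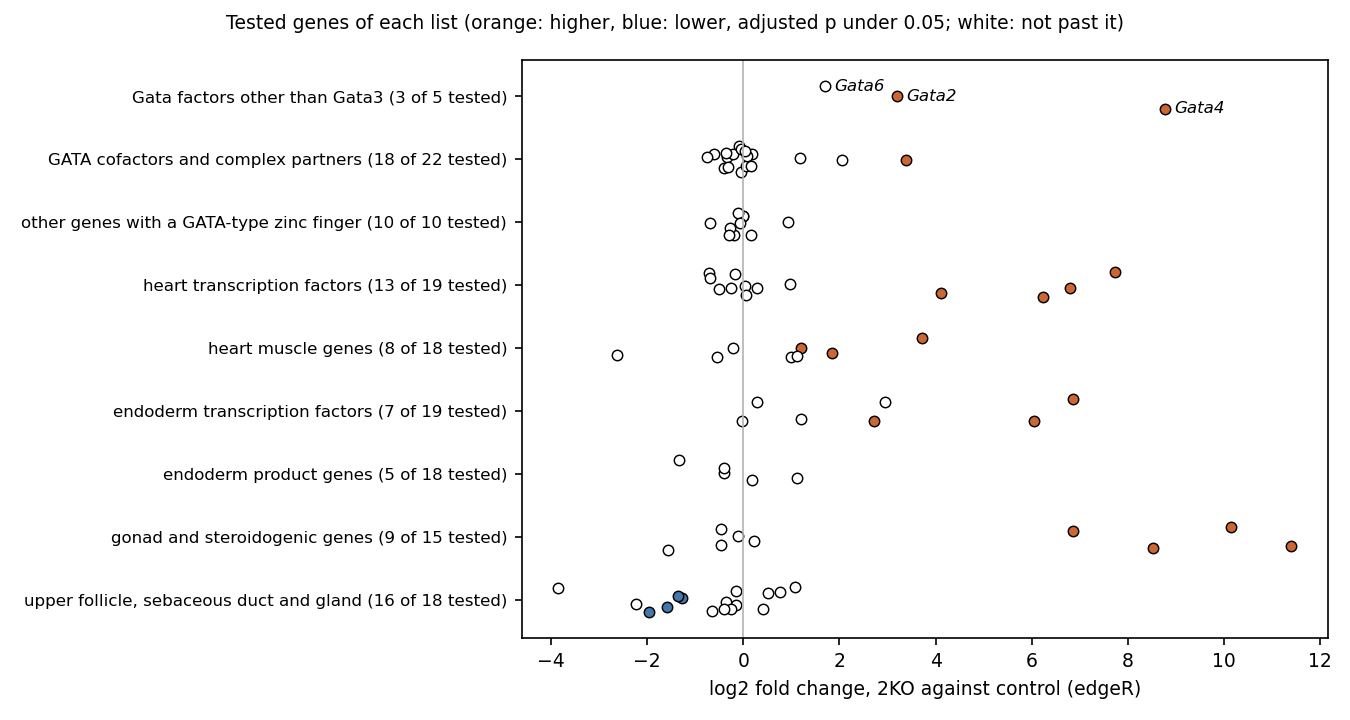
Log2 fold change of 2KO against control (horizontal axis) of every tested gene in the 5 Gata genes and in 8 lists (rows); orange points passed the threshold as higher, blue as lower and white points did not pass. Orange points are spread over the developmental lists, while the only blue points, 4 in all, lie in the upper follicle and sebaceous list.

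Markers of other cells were counted because Gata1 and Gata2 are genes of blood and vessels and Gata4 and Gata6 of mesodermal tissue. In bulk samples fewer cells of a type and less RNA per cell cannot be told apart. Calls among the markers are to be set beside the 6.61% of all tested genes that were higher and the 2.42% that were lower. None of 6 tested endothelial markers passed, and their summed level was 6.30 to 13.5 CPM in control and 4.34 to 17.8 CPM in 2KO. None of 4 tested mast cell, basophil and eosinophil markers passed (summed level 7.29 to 22.7 CPM in control and 10.8 to 23.3 CPM in 2KO), and Mcpt1, Mcpt2, Mcpt8 and Fcer1a were at 0 throughout.

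Of 5 tested red blood cell markers (of 14 listed) 1 was higher and none was lower, with a summed level of 76.7 to 111 CPM in control and 103 to 149 CPM in 2KO, most of it from the transferrin receptor Tfrc. Hba-a1, Hba-a2, Hbb-bs, Hbb-b1 and Hbb-b2, the globin genes with a row, were at 0 in all 6 libraries. Alas2, another gene of the list, had 87 to 202 counts per library, so absence of red-cell RNA is not read from these zeros. How reads shared by similar genes were counted was not given. Epor, the erythropoietin receptor and a known GATA target in red cells, stood at 2.08 ± 0.256 CPM in control and 7.52 ± 1.06 CPM in 2KO, a log2 difference of 1.85 ± 0.39 (SE; edgeR adjusted p = 0.0178), and lost the call without control replicate 3 (0.0689). In control replicate 3, the library that held all Gata1 counts, several other blood genes had more counts than in control replicates 1 and 2: Alas2 had 202 against 129 and 190, Tal1 41 against 8 and 0, Lmo2 82 against 46 and 39, Pf4 16 against 3 and 5 and Spi1 20 against 8 and 12. Klf1 (19 against 1 and 44), Cpa3 (27 against 206 and 4) and Itga2b (136 against 255 and 168) were not highest there. Epor (55 against 61 and 71), Gp1ba (82 against 135 and 112) and Kit (133 against 196 and 248) were lowest there among control libraries. So were the summed megakaryocyte (10.1 CPM) and mast cell (7.29 CPM) lists, while the immune sum was highest (27.4 CPM). In the 2KO libraries, without Gata1 counts, Tal1 had 116, 8 and 50 counts and Pf4 54, 0 and 2. The part of blood cells in the Gata1 counts was not tested. None of 4 tested megakaryocyte and 7 tested immune markers passed, with summed levels of 10.1 to 18.2 and 16.5 to 27.4 CPM in control and 8.71 to 18.6 and 13.5 to 26.7 CPM in 2KO.

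Dermal fibroblast markers moved with the groups in part. Of 9 tested (of 10 listed) 2 were higher and none was lower: Pdgfra, a growth factor receptor, from 0.896 ± 0.315 to 10.2 ± 5.23 CPM (edgeR adjusted p = 0.00348) and Thy1, a surface protein, from 13.8 ± 4.55 to 47.7 ± 21.4 CPM (0.0226). For Thy1 the call ended on leaving out control replicate 1 (0.0685) or 2 (0.0597), or 2KO replicate 1 (0.0552) or 2 (0.0752). The summed level of the list was 437 to 783 CPM in control and 685 to 854 CPM in 2KO, led by Dcn, a matrix proteoglycan, at 382 ± 97.5 and 474 ± 66.9 CPM (adjusted p = 0.469). Their part in the Gata4, Gata2 and Gata6 values was not tested. Among keratinocyte markers 3 of 13 were lower and none was higher: Shh, the hair signal, from 87.7 ± 26.1 to 22.8 ± 12.0 CPM, and the inner root sheath keratins Krt25, from 18.4 ± 7.59 CPM to 0 counts, and Krt71, from 15.6 ± 4.93 to 0.271 ± 0.224 CPM. Shh lost its call without 2KO replicate 2 (0.0512). Without either replicate-3 library 2 of the keratinocyte markers were lower and 1 was higher. None of 7 melanocyte, 2 skeletal muscle and 6 Schwann cell markers tested passed.

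The genes whose pattern over the 6 libraries was most like each tested Gata gene are given as a description, since all share the libraries and the difference between groups sets most of the likeness. Among 13596 genes of at least 1 CPM on average, the nearest to Gata4 were Pax2, a kidney transcription factor, Cacna1c, a calcium channel, and Prdm6, each with a Pearson r of 0.999. Pax2 had 0 counts in control and 2.59, 3.14 and 3.49 CPM in 2KO, and Cacna1c stood at 3.45 to 3.66 CPM in control and 49.2 to 59.8 CPM in 2KO. Nearest to Gata2 were Foxl2os and Ugcg (r = 0.998) and Luzp2 (0.997). Nearest to Gata6 were Aatk and Rnf128 (r = 0.998) and Pgm2l1 (0.996), which shared its low control replicate 3: Pgm2l1 stood at 17.5, 22.0 and 10.1 CPM in control and 35.3, 33.0 and 42.1 CPM in 2KO. An r above 0.95 was reached by 418 genes for Gata4, 374 for Gata2 and 124 for Gata6.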

How the data were processed

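Bulk RNA sequencing libraries, 3 control and 3 Ring1a/b 2KO, were made from amplified RNA with single reads of 100 nt, per the labels' protocols. The authors deposited whole-number read counts per gene, 1 table per library. The submitters' processing notes name HTSeq 0.6.1, TopHat2 2.0.13, DESeq2 1.6.3, Cufflinks 2.2.1 and build mm10, without their roles. The annotation and the use of strand were not given in the sources used here. There were no molecular identifiers, so that intervals and floors cover counting error only.

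Counts were tested with edgeR 4.0.16 in R 4.3.3 (filterByExpr with the group, TMM, quasi-likelihood F-test, Benjamini-Hochberg over 14972 genes, threshold 0.05); the SE is the absolute log2 fold change over the root of F. The fit was run on simulated data, with smaller changes than that of Gata4 and higher control levels than those of Gata4 and Gata2. That run does not cover genes near 0 in control. In all, 16 alternatives were run, with DESeq2 1.42.0 and limma-voom (limma 3.58.1) among them. Positions and exon lengths came from GENCODE vM21, which matched 97.1% of rows, and promoters from RefSeq GRCm38.p6.

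The Gata genes and the gene lists were chosen with earlier results of these data known. Lists covered cofactors, other GATA-type zinc fingers, heart transcription factors, heart muscle, endoderm transcription factors, endoderm products, gonad, upper follicle, and markers of 10 cell types. Named were all Gata genes, their neighbours, per list up to 4 called genes of largest change (or 2 of highest level where none was called), called or highest markers, and the 3 genes most alike. One called gene of the endoderm transcription factors is counted but not reported here by name. Other list members were named for their role after values were seen. No pair of libraries within a group was alike within sampling noise.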

Additional observations from a re-analysis of the deposited data

How the results depend on the processing

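Gata4 and Gata2 were the 2 Gata genes higher in 2KO. That number was 1 without either replicate-3 library and 1 without either replicate-1 library, Gata4 alone in each, and 1 to 2 when single libraries were left out. The 2 were Gata4 and Gata6 without control replicate 2, and Gata4 and Gata2 without 2KO replicate 2. The number was 3, with Gata6, under DESeq2, limma-voom, no filter on low counts and Xist as a covariate. None was lower under any alternative. Gata4 and Gata2 could not be lower in the fits with a filter, as they entered those only through 2KO. With no filter a lower call was possible, and both were higher (edgeR adjusted p = 8.42e-08 and 0.0182). Gata1 and Gata5 were tested only with no filter. Over all genes, 989 were higher and 362 lower. These numbers were 309 and 72 without either replicate-3 library, and 615 to 854 and 184 to 347 when single libraries were left out. The lower genes numbered 733 with DESeq2 and 237 with Xist as a covariate. The causes were not tested, beyond fewer libraries in the fits that leave some out. Counts near 0 limit Gata1 and Gata5, for which 1 count was worth 0.0323 to 0.0392 CPM.

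Replicate numbers were not shown to pair the libraries: deviations from the group means correlated at 0.29, 0.09 and -0.08 for numbers 1, 2 and 3. With the replicate block 3 Gata genes were higher, Gata6 at a log2 fold change of 1.84 (edgeR adjusted p = 0.0319), Gata2 at 3.16 (0.0365) and Gata4 at 8.76 (3.16e-05), with 1142 genes higher and 540 lower in all. One other gene with a GATA-type zinc finger, 1 upper follicle gene and 5 endoderm transcription factors were then higher.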

Other observations

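Some members of the lists were too low to be tested with the filter or did not pass, and are given as values; they were chosen for their role after values were seen. Nkx2-5, the cardiac partner of Gata4, had 0 counts in all 3 control libraries and 20, 26 and 6 counts in 2KO, at least 19.2-fold higher against a floor of 3 counts over the group. With no filter it passed (edgeR adjusted p = 0.0456), and the heart transcription factors that were higher then numbered 5. Nppa, a cardiac GATA target, had 21, 6 and 8 counts in control and 31, 15 and 17 in 2KO, so the groups overlapped. Sox17, an endoderm factor, had 13, 32 and 1 counts in control and 0 in all 2KO libraries, and Ttr, a product of endoderm, had 4, 14 and 3 counts in control and 0 in 2KO (edgeR adjusted p with no filter 0.0922 and 0.203).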
